A study of Mus musculus with 14 samples.

Results

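The genes described here code for the receptors on the surface of platelets and of megakaryocytes, the cells that shed them. The set holds 9 genes: Gp1ba, Gp1bb, Gp9 and Gp5 of the von Willebrand factor receptor, Itga2b and Itgb3 of the fibrinogen receptor, the collagen receptor Gp6, the podoplanin receptor Clec1b and the platelet receptor Treml1. They were taken by symbol: every probe set to which the platform annotation gives 1 of these symbols was used. Of the 9 genes, 8 had a probe set of their own, out of 18193 genes with one on the array, and Gp1ba was not analysed here for lack of one. Gp1bb and Itgb3 had a second, dimmer probe set, so that 10 probe sets were read out of 45037 tested, and 1 more that the annotation shares between Septin5 and Gp1bb was set apart.

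Total RNA came from the circulating blood of E12.5 mouse embryos, pooled over 8 to 10 embryos of like genotype, and was hybridised to 14 Affymetrix mouse arrays. The first cross, of Cbfb-MYH11 chimeras with C57/Bl6 females, gave Cbfb+/MYH11 embryos (4 arrays) and their WT littermates, which are Cbfb+/+ (4 arrays). The second, of Cbfb+/- with Cbfb+/- mice, gave Cbfb-/- embryos (3 arrays) and Cbfb+/+ littermates (3 arrays), and the labels name no strain for it. The MYH11 allele carries the leukaemia fusion Cbfb-MYH11 in the Cbfb gene itself, beside 1 intact allele. By their titles, arrays of 1 group are technical replicates, and the p-values below therefore measure how arrays spread, not how litters or pools do.

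Platelets stop bleeding in steps that these receptors serve in turn. The GPIb-IX-V complex catches von Willebrand factor on a damaged wall, GPVI and CLEC-2 signal inward through the kinase Syk, and the integrin alphaIIb-beta3 then opens and ties platelets together through fibrinogen. CLEC-2 has a second duty in the embryo, where its contact with podoplanin keeps lymph vessels apart from blood vessels. Runx1, whose partner subunit Cbfb encodes, is needed in mice for definitive blood formation and for the maturation of megakaryocytes.

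Values are log2 units after robust multi-array averaging (RMA), in which a difference of 1 is a doubling of signal; levels of different probe sets were not compared with each other. A log2 value of 6 was used as a working level for a clear signal, reached by 20.3% to 24% of the probe sets on an array. The main probe sets of 7 of the 8 genes reached it on at least 3 arrays, and Gp6 on none. Gp1bb and Itgb3 reached it on 5 arrays and Clec1b on 7, all of them wild type. A gene was called changed where limma's adjusted p (Benjamini-Hochberg over all probe sets) was under 0.05 and the change at least 1.5-fold. The Cbfb probe set was called in neither mutant: it averaged 7.74 ± 0.88 in Cbfb+/MYH11 and 7.41 ± 0.94 in WT blood (SD, n = 4 each), and 6.94 ± 0.12 in Cbfb-/- and 6.45 ± 0.16 in Cbfb+/+ blood (SD, n = 3 each; limma adjusted p = 0.57 and 0.549). In the first cross these means join array pairs that went opposite ways. The Cbfb probe set read 8.44, 8.56, 6.91 and 7.06 on the Cbfb+/MYH11 arrays, against 6.62, 6.57, 8.31 and 8.14 on the WT arrays. The position of its probes relative to the mutations is not given in the sources used here, so it is no check on the labels. Mutant values under the working level may sit near the background of the array, and a fold change may then understate the loss.

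**Figure D1:**
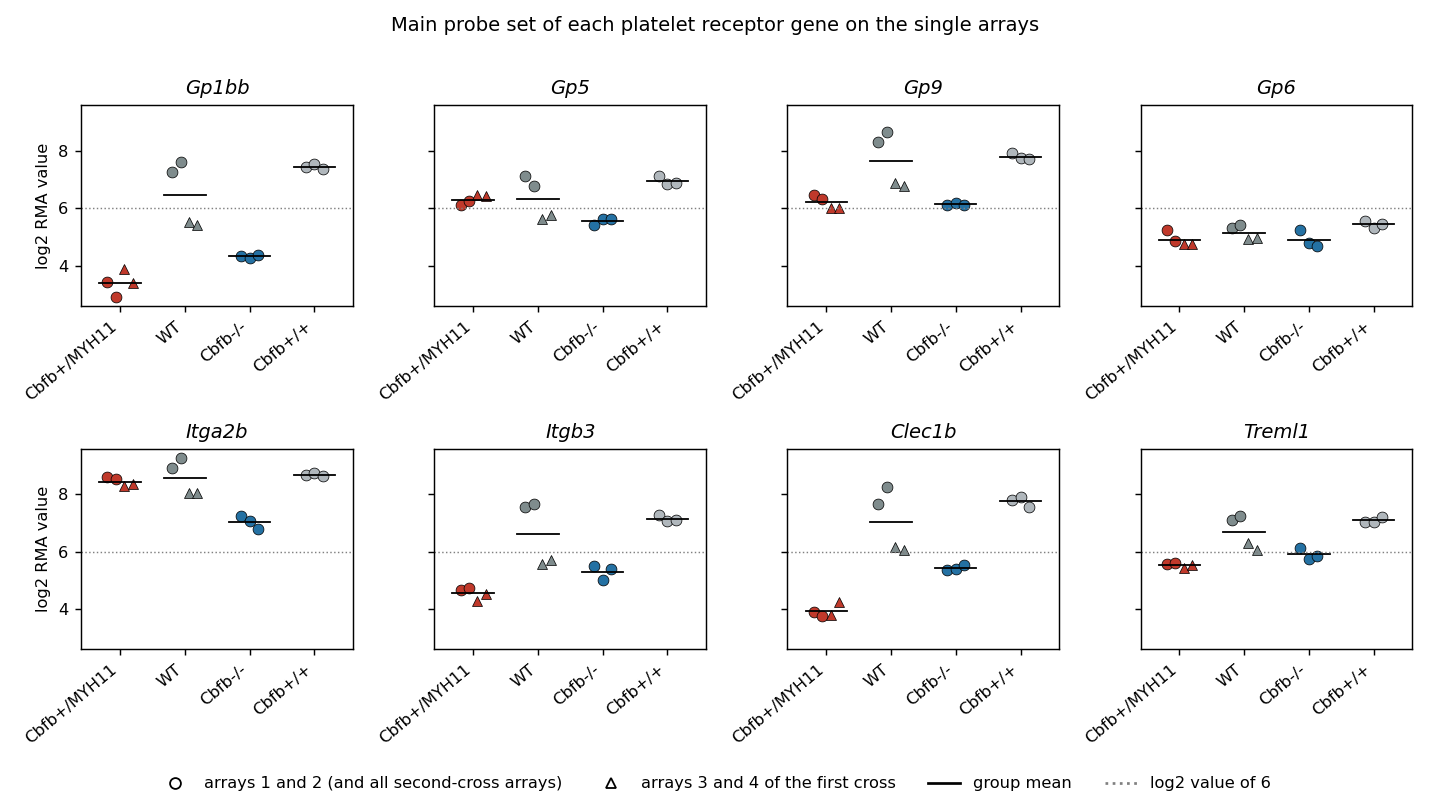
Log2 RMA value (vertical axis) of the main probe set of each of the 8 genes on each array, by group, with the mean of each group as a bar, triangles for arrays 3 and 4 of the first cross, circles for all others and a dotted line at the working level. Clec1b lay between 3.75 and 4.24 on the Cbfb+/MYH11 arrays and between 6.05 and 8.25 on the WT arrays, while Itga2b lay between 8.27 and 8.59 on the Cbfb+/MYH11 arrays and between 8.03 and 9.27 on the WT arrays.

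In Cbfb+/MYH11 blood 5 of the 8 receptor genes fell and none rose: Gp1bb, Gp9, Itgb3, Clec1b and Treml1. Over the whole array 2.94% of probe sets were called lower and 10.5% higher in this comparison. In Cbfb-/- blood the same 5 genes fell together with Gp5 and Itga2b, 7 of 8 in all, and again none rose. There 3.03% of all probe sets were called lower and 6.66% higher, the higher ones being 2998 probe sets, or 1706 to 3554 with 1 array left out. The median change of the 8 genes was -1.30 in Cbfb+/MYH11 and -1.66 in Cbfb-/- embryos, against -0.11 and -0.07 over all probe sets in the same order. With each array centred on its median, the fusion comparison shifts by 0.11. Relative to the median of all probe sets the 5 falls ran from -2.99 (Clec1b) to -1.04 (Treml1), while Itga2b stood at -0.02 and Gp5, with its sign turned, at 0.08. The reference matters: probe sets at the working level on at least 3 arrays had a median fusion change of 0.27. With quantile normalization Itga2b stood at -0.52 and Gp5 at -0.27, neither of them called (limma adjusted p = 0.176 and 0.588). The 5 genes that fell with the fusion were also those whose Cbfb+/MYH11 and WT arrays did not overlap, and in the second cross none of the 8 overlapped. Over all probe sets the arrays of the mutant lay wholly below those of its littermates for 12.1% with the fusion and for 21.2% in Cbfb-/- blood. Itga2b and Gp5, which fell in Cbfb-/- blood alone, passed the test of the difference between the effects, at which 4.72% of all probe sets were called with a higher fusion effect and 2.8% with a lower one. Among probe sets at the working level on at least 3 arrays, where 7 of the 8 genes stand, these shares were 12.8% and 4.78%. There 5.53% were called lower and 29.7% higher with the fusion, and 7.05% lower and 17.5% higher in Cbfb-/- blood. The calls of the receptor genes rest on arrays as the unit: with each array pair of the first cross and each group of the second counted as 1 pool, none of them passed (limma adjusted p of 0.13 to 0.322 for the 5 genes with the fusion). In such bulk samples fewer megakaryocytes or platelets cannot be told apart from less RNA of these genes in each.

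The von Willebrand factor receptor has 4 chains: GPIb-alpha, which binds the ligand, GPIb-beta (Gp1bb), GPIX (Gp9) and GPV (Gp5). The 3 with a probe set did not move alike. The 250 bases before the annotated start of each are shown because these genes share a complex and yet differ in the fusion embryos; they are RefSeq sequences of GRCm38.p6, at chr16:18622404-18622653 for Gp1bb (minus strand), chr6:87777820-87778069 for Gp9 (plus strand) and chr16:30310782-30311031 for Gp5 (minus strand). Capitals mark the letters of searched motifs on either strand: TGTGGT or TGCGGT, the core read by Runx1 with Cbfb; AGATAA or TGATAA, read by GATA factors; AGGAAG or CGGAAG, read by ETS factors; and TATAAA, the TATA box.
Gp1bb: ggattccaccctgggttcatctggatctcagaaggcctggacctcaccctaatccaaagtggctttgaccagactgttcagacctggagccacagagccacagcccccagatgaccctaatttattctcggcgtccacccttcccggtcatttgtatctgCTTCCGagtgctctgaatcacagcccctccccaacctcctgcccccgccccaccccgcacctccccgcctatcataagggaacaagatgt
Gp9: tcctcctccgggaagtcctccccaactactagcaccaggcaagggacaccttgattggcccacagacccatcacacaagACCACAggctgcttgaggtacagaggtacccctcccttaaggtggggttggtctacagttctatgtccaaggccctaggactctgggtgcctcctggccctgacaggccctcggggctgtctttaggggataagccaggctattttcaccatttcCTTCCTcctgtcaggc
Gp5: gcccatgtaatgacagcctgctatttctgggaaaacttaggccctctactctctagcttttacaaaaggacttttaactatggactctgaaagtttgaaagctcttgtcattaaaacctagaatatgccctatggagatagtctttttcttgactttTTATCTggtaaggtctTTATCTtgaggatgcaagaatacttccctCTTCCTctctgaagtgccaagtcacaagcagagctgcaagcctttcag
The capitals in Gp1bb spell an ETS motif on the other strand. Those in Gp9 spell the TGTGGT motif on the other strand, which starts 171 bases before the gene start, and an ETS motif 16 bases before it. In Gp5 they spell 2 GATA motifs, 93 and 77 bases before the start, and then an ETS motif, all on the other strand.

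Gp1bb (GPIb-beta), which anchors the ligand-binding chain to the complex, lost most of its signal in both mutants. It read 3.42, 2.91, 3.86 and 3.38 on the Cbfb+/MYH11 arrays, against 7.27, 7.62, 5.51 and 5.43 on the WT arrays. All 4 fusion arrays lay below all 4 WT arrays, and the WT arrays themselves split into a high and a low pair. The change was -3.06, an 8.37-fold fall (95% interval 4.65 to 15.0; limma adjusted p = 6.14e-05). In Cbfb-/- blood Gp1bb read 4.32, 4.26 and 4.36, against 7.43, 7.52 and 7.37 in Cbfb+/+ littermates. These groups stood far apart with little spread within either, and the fall was 8.73-fold (95% interval 4.43 to 17.2; limma adjusted p = 0.00069). That interval uses a spread estimate shared by all 4 groups, not the spread of these groups alone. Fitted on the arrays of its own cross only, the Cbfb-/- fall had a limma adjusted p of 5.39e-07 and the fusion fall one of 0.00317. The effects in the mutants differed by 0.06 (95% interval -1.23 to 1.36), a range wide enough to hide a doubling either way; it averages a difference of -1.16 within arrays 1 and 2 and of 1.28 within arrays 3 and 4, both called (limma adjusted p = 0.00246 and 0.000888). The second Gp1bb probe set lay between 4.12 and 4.30 on the Cbfb+/MYH11 arrays and between 4.37 and 4.63 on the WT arrays. It was also lower in Cbfb-/- blood, at 4.59 to 4.61, against 4.81 to 5.10 in Cbfb+/+ blood, but was called in neither (limma adjusted p = 0.058 and 0.0784). The probe set shared between Septin5 and Gp1bb was called in neither comparison (0.43, limma adjusted p = 0.265, and 0.75, limma adjusted p = 0.137).

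Gp9 (GPIX), the small chain that the complex needs to reach the cell surface, fell by a smaller factor. It read 6.46, 6.32, 6.02 and 6.02 on the Cbfb+/MYH11 arrays, against 8.30, 8.66, 6.88 and 6.76 on the WT arrays. No fusion array reached the lowest WT array, and the fall was 2.72-fold (95% interval 1.67 to 4.42; limma adjusted p = 0.00492). The Cbfb-/- arrays read 6.12, 6.18 and 6.11, against 7.91, 7.75 and 7.71 in Cbfb+/+ blood. The fall here was 3.15-fold (95% interval 1.80 to 5.52; limma adjusted p = 0.0106). Gp9 stayed above the working level on all 14 arrays, in the mutants by a narrow margin. That level is no detection call, and how much of the mutant signal is background was not tested.

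Gp5 (GPV), the chain that thrombin can cleave, fell in Cbfb-/- blood and was not called with the fusion. It read 6.12, 6.23, 6.44 and 6.41 in Cbfb+/MYH11 blood, against 7.13, 6.78, 5.63 and 5.76 in WT blood. The fusion arrays lay in the gap between the high and the low WT pair, and the change was -0.03 (95% interval -0.58 to 0.53; limma adjusted p = 0.947). Without Cbfb, Gp5 read 5.40, 5.62 and 5.61 in Cbfb-/- blood, against 7.13, 6.85 and 6.89 in Cbfb+/+ blood. That was a 2.66-fold fall with no overlap (95% interval 1.70 to 4.15; limma adjusted p = 0.00715). The effects differed by 1.38 (95% interval 0.54 to 2.23; limma adjusted p = 0.045). This call is thin: it was lost with any array but WT 1 or WT 2 left out, at adjusted p up to 0.116, and with quantile normalization (1.33, limma adjusted p = 0.122).

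The fibrinogen receptor pairs alphaIIb (Itga2b, also called CD41) with beta3 (Itgb3). Itga2b is also carried by early blood progenitors of the mouse embryo, and beta3 can pair with alphaV in other cells. The promoter window of Itga2b is shown because the subunits of this integrin parted in the fusion embryos; the window is chr11:102469884-102470133 (minus strand, GRCm38.p6), and its capitals are ETS motifs on the gene's own strand, 125 and 43 bases before the start.
Itga2b: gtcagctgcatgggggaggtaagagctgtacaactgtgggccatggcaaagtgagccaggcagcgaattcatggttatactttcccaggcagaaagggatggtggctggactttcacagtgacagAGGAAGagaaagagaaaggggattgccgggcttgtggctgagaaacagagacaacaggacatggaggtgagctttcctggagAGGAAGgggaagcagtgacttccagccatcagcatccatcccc
The sequence table used here has no entry for Itgb3.

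Itga2b read 8.59, 8.54, 8.27 and 8.36 in Cbfb+/MYH11 blood, against 8.90, 9.27, 8.05 and 8.03 in WT blood. The groups overlapped, and the change was -0.13 (95% interval -0.61 to 0.36; limma adjusted p = 0.691). In Cbfb-/- blood it read 7.24, 7.05 and 6.78, against 8.68, 8.74 and 8.63 in Cbfb+/+ blood. All Cbfb-/- arrays lay more than 1 log2 unit below all Cbfb+/+ arrays, a 3.16-fold fall (95% interval 2.15 to 4.65; limma adjusted p = 0.00115). The fusion effect was higher than the effect of Cbfb loss by 1.53 (95% interval 0.80 to 2.27; limma adjusted p = 0.0122). The call was kept with each array left out in turn (1.35 to 1.77, highest adjusted p 0.0407), and was narrowly lost with quantile normalization (1.34, limma adjusted p = 0.0543).

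Itgb3 fell in both. Its brighter probe set read 4.67, 4.72, 4.28 and 4.51 in Cbfb+/MYH11 blood, against 7.54, 7.67, 5.57 and 5.70 in WT blood. All fusion arrays lay below all WT arrays, and the fall was 4.21-fold (95% interval 2.38 to 7.45; limma adjusted p = 0.00114). The Cbfb-/- arrays read 5.50, 5.01 and 5.40, against 7.28, 7.05 and 7.11 on the Cbfb+/+ arrays, a 3.58-fold fall (95% interval 1.86 to 6.92; limma adjusted p = 0.0139). That call was lost without Cbfb-/- array 2 (limma adjusted p = 0.0549). The dimmer probe set was lower by less: it was called in Cbfb+/MYH11 blood at -0.96 (limma adjusted p = 0.0108), and was not called in Cbfb-/- blood at -0.62 (limma adjusted p = 0.163). With replicate numbers as a block that Cbfb-/- change passed (limma adjusted p = 0.025). The effects of the brighter probe set differed by -0.23 (95% interval -1.49 to 1.02), with -1.07 within arrays 1 and 2 and 0.61 within arrays 3 and 4, both called (limma adjusted p = 0.00143 and 0.0475). In the fusion embryos, then, the arrays showed an alphaIIb signal within the WT range beside a beta3 signal below it.

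Clec1b codes for CLEC-2, which signals through a short motif in its own tail after binding podoplanin. Its window, chr6:129397047-129397296 (plus strand, GRCm38.p6), is shown as the only one among the genes with a TATA motif; the capitals spell TATAAA and TGATAA side by side and then TATAAA on the other strand, 87 bases before the start.
Clec1b: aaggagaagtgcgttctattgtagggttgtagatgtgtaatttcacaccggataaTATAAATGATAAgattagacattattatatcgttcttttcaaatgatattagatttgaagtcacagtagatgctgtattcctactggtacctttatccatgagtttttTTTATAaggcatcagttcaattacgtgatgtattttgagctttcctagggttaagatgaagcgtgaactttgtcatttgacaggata
Clec1b was among the deepest falls of the set in both mutants. It read 3.89, 3.75, 3.81 and 4.24 in Cbfb+/MYH11 blood, against 7.64, 8.25, 6.15 and 6.05 in WT blood. Every fusion array lay under the lowest WT array by well over 1 log2 unit, and the fall was 8.56-fold (95% interval 4.96 to 14.8; limma adjusted p = 3.02e-05). With Cbfb lost it read 5.34, 5.39 and 5.52 in Cbfb-/- blood, against 7.80, 7.90 and 7.57 in Cbfb+/+ blood. This was a 5.05-fold fall (95% interval 2.69 to 9.50; limma adjusted p = 0.0029). The Cbfb+/MYH11 arrays lay below the Cbfb-/- arrays, but the effects, each against its own littermates, differed by -0.76 with an interval of -1.96 to 0.44 (limma adjusted p = 0.535). Within arrays 1 and 2 that difference was -1.79 and called (limma adjusted p = 9.54e-05), and within arrays 3 and 4 it was 0.27 (limma adjusted p = 0.576).

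Gp6, the collagen receptor GPVI, was the dim gene of the set. It read 5.24, 4.86, 4.73 and 4.75 in Cbfb+/MYH11 blood, against 5.29, 5.41, 4.93 and 4.97 in WT blood, with overlap (-0.25, limma adjusted p = 0.229). In Cbfb-/- blood it read 5.23, 4.80 and 4.69, against 5.56, 5.31 and 5.46 in Cbfb+/+ blood. The groups did not overlap, by a narrow margin, and the change of -0.54 was not called (95% interval -0.92 to -0.16; limma adjusted p = 0.0552). It passed with quantile normalization (-0.59, limma adjusted p = 0.0415) and without Cbfb-/- array 1 (-0.70, limma adjusted p = 0.033).

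Treml1 codes for TLT-1, a receptor held in platelet alpha granules until activation. It read 5.55, 5.60, 5.41 and 5.54 in Cbfb+/MYH11 blood, against 7.11, 7.26, 6.30 and 6.06 in WT blood, a 2.22-fold fall (95% interval 1.62 to 3.05; limma adjusted p = 0.00111). The Cbfb-/- arrays read 6.14, 5.75 and 5.85, against 7.02, 7.02 and 7.22 on the Cbfb+/+ arrays, a 2.25-fold fall (95% interval 1.56 to 3.24; limma adjusted p = 0.00665). The groups were apart in both crosses, and the effects differed by 0.02 (95% interval -0.68 to 0.71).

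**Figure D2:**
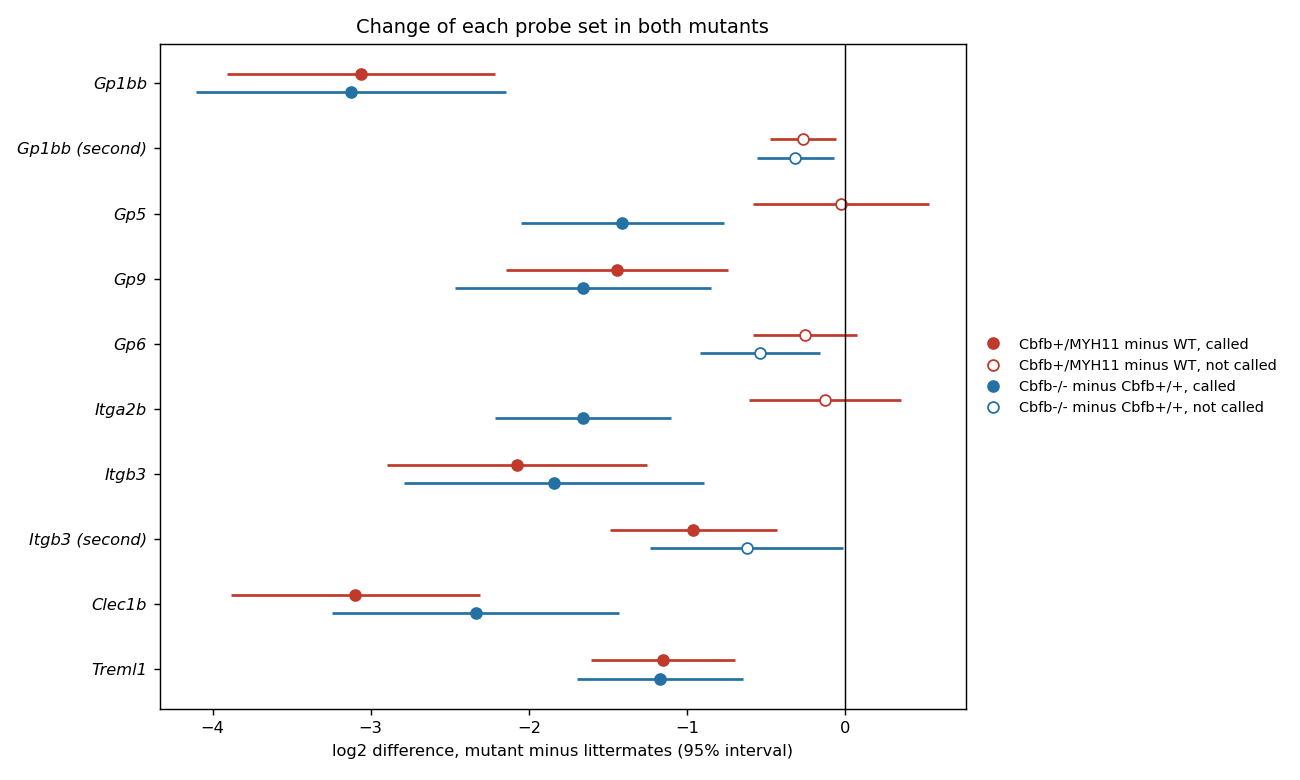
Change on the log2 scale (horizontal axis) of each probe set of the 8 genes in Cbfb+/MYH11 against WT blood and in Cbfb-/- against Cbfb+/+ blood, with 95% intervals; filled points were called. Gp5 at -0.03 and Itga2b at -0.13 sit beside 0 in the fusion comparison and at -1.41 and -1.66 in the Cbfb-/- comparison.

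The promoter windows gave no motif common to the genes that fell. Of the 8 genes with a window, 1 held the RUNX motif (Gp9), 4 a GATA motif (Gp1ba, Gp5, Gp6 and Clec1b), 5 an ETS motif (Gp1ba, Gp1bb, Gp5, Gp9 and Itga2b) and 1 a TATA motif. The Treml1 window held none. Among all 32851 windows of the same length, 18.6% held a RUNX motif, 16.6% a GATA motif, 39.2% an ETS motif and 12.4% a TATA motif. A match here is a run of letters and not a measured binding site.

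**Figure D3:**
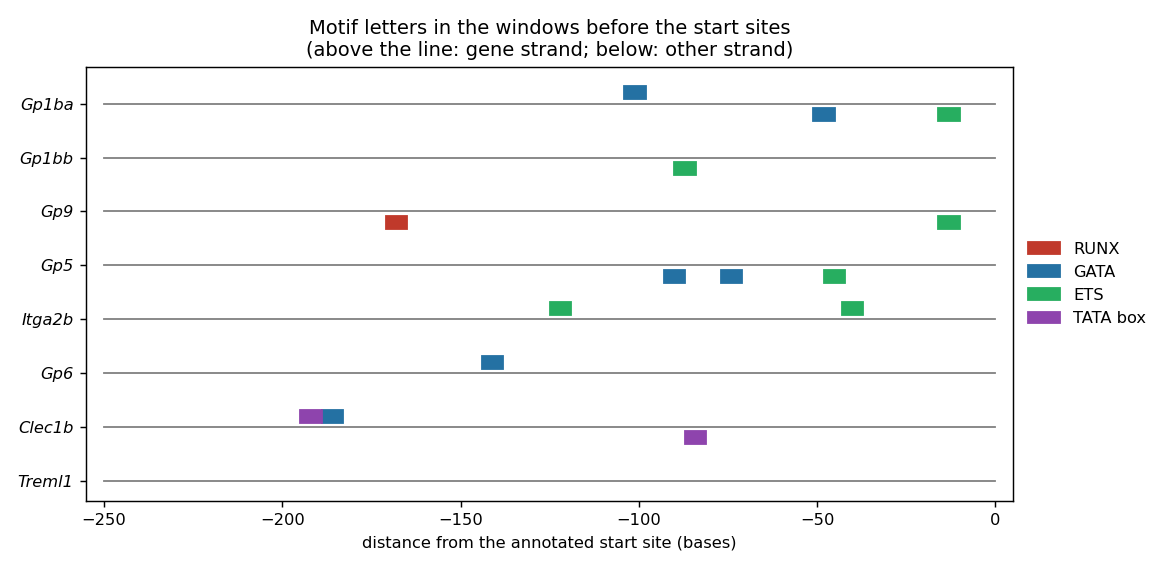
Position of the searched motifs in the 8 promoter windows, in bases before the annotated gene start (horizontal axis), by motif family and strand. The RUNX motif appears in Gp9 at 171 bases before the start, and Treml1 has no mark.

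The 4 WT arrays of the first cross were not alike. Arrays 1 and 2 read higher than arrays 3 and 4 for all 8 genes, by 1.98 for Gp1bb, 1.97 for Itgb3, 1.85 for Clec1b, 1.66 for Gp9, 1.27 for Gp5, 1.04 for Itga2b, 1.00 for Treml1 and 0.40 for Gp6. Over the 12190 probe sets at the working level on at least 3 arrays, the log2 differences within a WT pair had an SD of 0.278 and 0.123. Across the WT pairs it was 0.689 to 0.749. Among the Cbfb+/MYH11 arrays it was 0.164 and 0.115 within pairs and 0.397 to 0.423 across them. The labels do not say what sets the pairs apart. Liver and yolk sac markers averaged 8.50 on WT arrays 1 and 2 and 5.83 on WT arrays 3 and 4, and neural markers 3.49 and 5.65, and their part in the pair differences was not tested. Set against WT arrays of the same pair, the 5 falling genes were called lower in both: Clec1b changed by -4.12 in arrays 1 and 2 and by -2.07 in arrays 3 and 4, and Gp1bb by -4.28 and -1.85. Itgb3 changed by -2.91 and -1.24, Gp9 by -2.08 and -0.80, and Treml1 by -1.61 and -0.70, in the same order of pairs. Over the whole array, too, more probe sets were called lower within arrays 1 and 2 than in the fit to the 4 groups. The test of the difference likewise called more probe sets within either pair, as counted in the last paragraph. The count called lower over the whole array within arrays 3 and 4 is not given here. Gp5 turned round: it was called lower in arrays 1 and 2 at -0.78 (limma adjusted p = 0.00054) and higher in arrays 3 and 4 at 0.73 (limma adjusted p = 0.00148). Itga2b was at -0.52, under the fold limit (limma adjusted p = 0.013), and at 0.27 (limma adjusted p = 0.227). The difference from the Cbfb-/- effect was called in both pairs for Itga2b, at 1.14 (limma adjusted p = 0.000705) and 1.93 (limma adjusted p = 3.26e-06), and for Gp5, at 0.63 (limma adjusted p = 0.0299) and 2.14 (limma adjusted p = 7.87e-07). In all fits within pairs the gap between array pairs was not counted as spread, so their p-values rest on arrays within a pair or group. Both pairs were set against the same Cbfb-/- effect. The labels do not match fusion pairs to WT pairs, and the matching here went by array number.

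**Figure D4:**
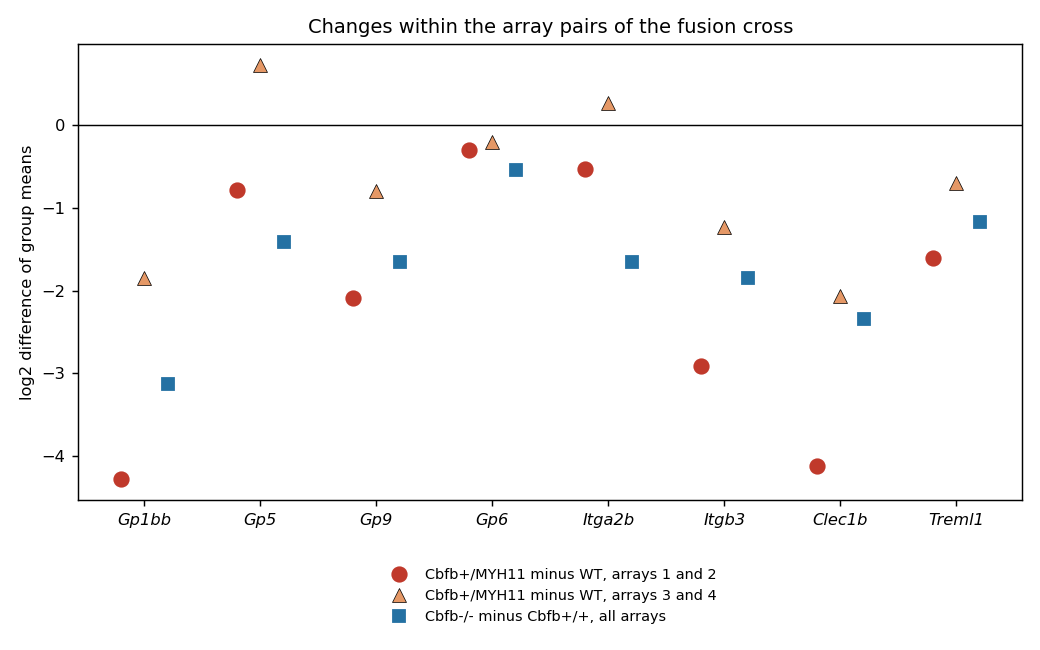
Change on the log2 scale (vertical axis) of the 8 genes in Cbfb+/MYH11 against WT blood, taken within arrays 1 and 2 (circles) and within arrays 3 and 4 (triangles), and in Cbfb-/- against Cbfb+/+ blood (squares). Each of the 8 fusion changes is more negative in arrays 1 and 2, and Gp5 and Itga2b change sign between the pairs.

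Between the wild-type groups of the crosses, Cbfb+/+ over WT, none of the 8 main probe sets was called, where 2.2% of all probe sets were called higher and 2.36% lower. The Cbfb+/+ means were higher by 0.98 for Gp1bb (limma adjusted p = 0.177), 0.74 for Clec1b (limma adjusted p = 0.285) and 0.63 for Gp5 (limma adjusted p = 0.187), and by 0.12 for Itga2b (limma adjusted p = 0.822). In level, the groups ran from Cbfb+/MYH11 at the bottom through Cbfb-/- and WT to Cbfb+/+ at the top for Gp1bb, Itgb3, Clec1b and Treml1. The neighbours WT and Cbfb+/+ overlapped in each of these, and Cbfb-/- and WT overlapped in Treml1, while the Cbfb+/MYH11 arrays all lay below the Cbfb-/- arrays. In Gp9 and Gp6 the mutant groups overlapped each other and their means stood below the wild-type means. For Gp5 and Itga2b the lowest group was Cbfb-/-, which lay below every other array, and the Cbfb+/MYH11 arrays fell within the range of the WT arrays and below the Cbfb+/+ arrays.

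Markers of other cell types moved in the same samples. Their counts stand beside 2.94% of all probe sets called lower and 10.5% higher with the fusion. In Cbfb-/- blood these shares were 3.03% and 6.66%. Of the 8 macrophage markers with a probe set, 6 were called lower and none higher in Cbfb+/MYH11 blood, and 7 lower and none higher in Cbfb-/- blood. Their mean log2 value ran from 4.85 to 4.92 on the Cbfb+/MYH11 arrays, against 5.72 to 7.67 on the WT arrays, and from 5.01 to 5.19 on the Cbfb-/- arrays, against 7.05 to 7.14 on the Cbfb+/+ arrays. Like the receptor genes they were higher on WT arrays 1 and 2 (7.53) than on WT arrays 3 and 4 (5.73). Of 8 mast cell and basophil markers 4 were called higher and 1 lower with the fusion; they averaged 5.95 to 6.17 on the Cbfb+/MYH11 arrays and 4.05 to 4.43 on the WT arrays, and 3.79 to 3.93 on the Cbfb-/- arrays and 4.22 to 4.30 on the Cbfb+/+ arrays. Of 6 neural markers, foreign to blood, 3 were called higher with the fusion and 6 in Cbfb-/- blood; they averaged 5.46 to 7.67 on the Cbfb+/MYH11 arrays and 3.43 to 5.67 on the WT arrays, and 8.07 to 8.24 on the Cbfb-/- arrays and 4.02 to 4.39 on the Cbfb+/+ arrays. Of 5 liver and yolk sac markers 1 was called lower with the fusion and 2 higher in Cbfb-/- blood; they averaged 5.48 to 6.94 on the Cbfb+/MYH11 arrays and 5.78 to 8.53 on the WT arrays, and 8.55 to 8.75 on the Cbfb-/- arrays and 7.32 to 7.33 on the Cbfb+/+ arrays. Of 5 stem and progenitor markers 3 were called higher and 1 lower with the fusion, and 2 lower and none higher in Cbfb-/- blood. They averaged 6.40 to 6.62 on the Cbfb+/MYH11 arrays and 5.41 to 5.57 on the WT arrays, and 4.89 to 5.07 on the Cbfb-/- arrays and 5.55 to 5.76 on the Cbfb+/+ arrays. Of 7 endothelial markers 2 were called higher and 1 lower with the fusion, and 2 higher and none lower in Cbfb-/- blood. They averaged 4.74 to 4.88 on the Cbfb+/MYH11 arrays and 4.70 to 5.01 on the WT arrays, and 4.95 to 5.10 on the Cbfb-/- arrays and 4.50 to 4.69 on the Cbfb+/+ arrays. Of 6 megakaryocyte and platelet markers, Gp9 and Itga2b among them, 4 were called lower with the fusion and 6 in Cbfb-/- blood. The mean of 5 erythroid markers lay between 13.79 and 13.95 on all arrays, near the top of the scale, and none of them was called in either comparison. The part of these cells in the receptor changes was not tested.

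Among all genes at the working level, those with patterns most like each receptor were sought by the root mean square difference of centred log2 values over the 14 arrays, among 7385 genes; some of these, such as C1qa, reach that level on wild-type arrays alone. Nearest to Gp1bb were Ctla2b (0.325), C1qa (0.463) and Tyrobp (0.471), and nearest to Clec1b were Ctla2b (0.287), Ctss (0.378) and Alox12 (0.383). Itgb3 was nearest to Fcer1g (0.227), Tyrobp (0.232) and C1qa (0.256). Gp5 was nearest to Grap2 (0.259), P2rx1 (0.273) and Gfi1b (0.280), and Itga2b to Yod1 (0.181), E2f2 (0.237) and Btk (0.247). Gp9 was nearest to Selenop (0.234), Fcrls (0.255) and Ifi27l2a (0.282), and Treml1 to Mpeg1 (0.145), Ehd4 (0.182) and Fars2 (0.189). Among the receptors themselves Gp1bb and Clec1b were closest, at 0.344, followed by Gp9 with Treml1 at 0.350 and Gp5 with Itga2b at 0.394. The integrin subunits Itga2b and Itgb3 were 1.02 apart, and Gp1bb and Itga2b farthest at 1.49.

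Of what these receptors bind, Vwf, the ligand of GPIb-IX-V, fell in both mutants. It averaged 3.53 ± 0.18 in Cbfb+/MYH11 and 5.34 ± 0.63 in WT blood (SD, n = 4 each), a change of -1.81 (limma adjusted p = 4.75e-05). Without Cbfb it averaged 4.16 ± 0.05 in Cbfb-/- blood, against 6.10 ± 0.16 in Cbfb+/+ blood (SD, n = 3 each), a change of -1.94 (limma adjusted p = 0.000414). Thbs1, the granule protein thrombospondin-1, fell by 2.21 in Cbfb+/MYH11 blood and by 1.66 in Cbfb-/- blood (limma adjusted p = 0.00077 and 0.0243); the call in Cbfb-/- blood was lost without any 1 of the 6 arrays of that cross (up to 0.0766). Podoplanin (Pdpn), which CLEC-2 binds, was called in neither (0.19 and 0.36; limma adjusted p = 0.337 and 0.178). Fn1 (fibronectin) rose by 0.84 in Cbfb-/- blood (limma adjusted p = 0.00812) and stood at 0.03 with the fusion, and the laminin chain Lamc1 fell by 0.68 in Cbfb+/MYH11 blood and stood at 0.07 in Cbfb-/- blood. The difference between the effects was called for Lamc1 and was not called for Fn1. Over the list of 11 ligands, 3 were called lower and none higher with the fusion, and 2 lower and 1 higher in Cbfb-/- blood, with medians of -0.68 and 0.36. For this list and those below, the shares of all probe sets were 2.94% lower and 10.5% higher with the fusion. In Cbfb-/- blood they were 3.03% and 6.66%.

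Inside the cell, the list of adaptors and integrin activators had 23 genes with a probe set, 4 of them called lower and 4 higher with the fusion, and 7 lower and 4 higher in Cbfb-/- blood; the list medians were -0.0038 and -0.39. Fcer1g, the signalling chain of GPVI, averaged 5.21 ± 0.19 in Cbfb+/MYH11 and 6.97 ± 0.89 in WT blood (SD, n = 4 each), a fall of 1.75 (limma adjusted p = 0.000691). It averaged 5.66 ± 0.15 in Cbfb-/- and 7.69 ± 0.08 in Cbfb+/+ blood (SD, n = 3 each; limma adjusted p = 0.00212). Macrophages use this chain too. Syk, the kinase that GPVI and CLEC-2 share, fell by 0.95 with the fusion and by 0.91 in Cbfb-/- blood (limma adjusted p = 0.00137 and 0.0106), and the adaptor Lat by 0.98 and by 0.93. The kinase Fyn rose in both, by 1.36 and 0.99. In Cbfb-/- blood the Lat call was lost without Cbfb+/+ array 2 (limma adjusted p = 0.0515) and the Fyn call without Cbfb-/- array 1 or 3 or Cbfb+/+ array 1 or 3 (up to 0.0674). Fermt3 codes for kindlin-3, which opens alphaIIb-beta3 from within, and its changes ran in opposite directions. It averaged 8.46 ± 0.40 in Cbfb+/MYH11 and 7.41 ± 0.61 in WT blood (SD, n = 4 each), a rise of 1.05 (limma adjusted p = 0.00646), and 6.32 ± 0.19 in Cbfb-/- and 8.41 ± 0.04 in Cbfb+/+ blood (SD, n = 3 each), a fall of 2.10 (limma adjusted p = 0.000442). The effects differed by 3.15 (limma adjusted p = 0.000105), although the rise alone was not called with quantile normalization (0.66, limma adjusted p = 0.104) or within arrays 1 and 2 (0.22, limma adjusted p = 0.293). The wild-type groups differed as well: Fermt3 was called higher in Cbfb+/+ than in WT blood, by 1.01 (limma adjusted p = 0.0313). That call was lost without WT array 3 or 4 or any Cbfb+/+ array (up to 0.0953). The Cbfb+/MYH11 mean thus lay near the Cbfb+/+ mean of the other cross.

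Of 32 other platelet surface receptors, 8 were called lower and 2 higher in Cbfb+/MYH11 blood, and 3 lower and 1 higher in Cbfb-/- blood, with medians of -0.39 and -0.05. F2r, a thrombin receptor of human platelets in whose place mouse platelets use relatives, rose by 1.99 with the fusion (limma adjusted p = 1.82e-05) and was not called in Cbfb-/- blood at 0.45, a difference of 1.54 (limma adjusted p = 0.0115). The glucose transporter Slc2a3 rose by 1.98 with the fusion and stood at 0.29 in Cbfb-/- blood, a difference of 1.69 (limma adjusted p = 3.52e-05). Cd9, a tetraspanin abundant on platelets, fell by 1.58 with the fusion (limma adjusted p = 0.000511) and was not called in Cbfb-/- blood at -0.54. The difference between these Cd9 effects, -1.04, was not called either. The laminin receptor chain Itga6 fell by 0.74 with the fusion and stood at 0.10 in Cbfb-/- blood.

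Among the 5 related lists, which leave out the cell type markers, platelet contents had the most falls. Of 14 genes 9 were called lower and 1 higher in Cbfb+/MYH11 blood, and 9 lower and none higher in Cbfb-/- blood, with medians of -0.93 and -1.27. Vwf and Thbs1 are counted here and among the ligands. The chemokine gene Ppbp fell by 4.80 with the fusion and by 2.84 in Cbfb-/- blood, and Pf4 by 3.44 and by 1.45, the last not called without Cbfb-/- array 1 (limma adjusted p = 0.0522). Tubb1, the tubulin of the platelet rim, was not called with the fusion at 0.46 (limma adjusted p = 0.113) and fell by 2.62 in Cbfb-/- blood (limma adjusted p = 2.31e-05), a difference of 3.08 (limma adjusted p = 2.34e-05). Srgn (serglycin), which many blood cells pack in granules, rose by 2.84 with the fusion and fell by 1.09 in Cbfb-/- blood, a fall that was not called with replicate numbers as a block (limma adjusted p = 0.0506) or without any 1 of the 6 arrays of that cross (up to 0.0834). Of 16 transcription factors of megakaryocytes, none was called lower and 2 higher with the fusion, and 3 lower and none higher in Cbfb-/- blood. With the fusion 10.5% of all probe sets, and 29.7% of those at the working level, were called higher, so 2 is no excess. Gata2 rose by 3.51 with the fusion and fell by 0.78 in Cbfb-/- blood (limma adjusted p = 0.0462). That fall ran from -1.02 to -0.44 with 1 array left out and was not called without any 1 of the 4 Cbfb+/MYH11 arrays, the 3 Cbfb+/+ arrays or Cbfb-/- arrays 1 and 2 (up to 0.189; -0.44 without Cbfb-/- array 1). Gata1 rose by 0.77 with the fusion and stood at -0.43 in Cbfb-/- blood, under the fold limit. Zfpm1, the cofactor of Gata1, stood at 0.55 and -0.53, and Gfi1b at -0.01 with the fusion, with a fall of 0.91 in Cbfb-/- blood.

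**Figure D5:**
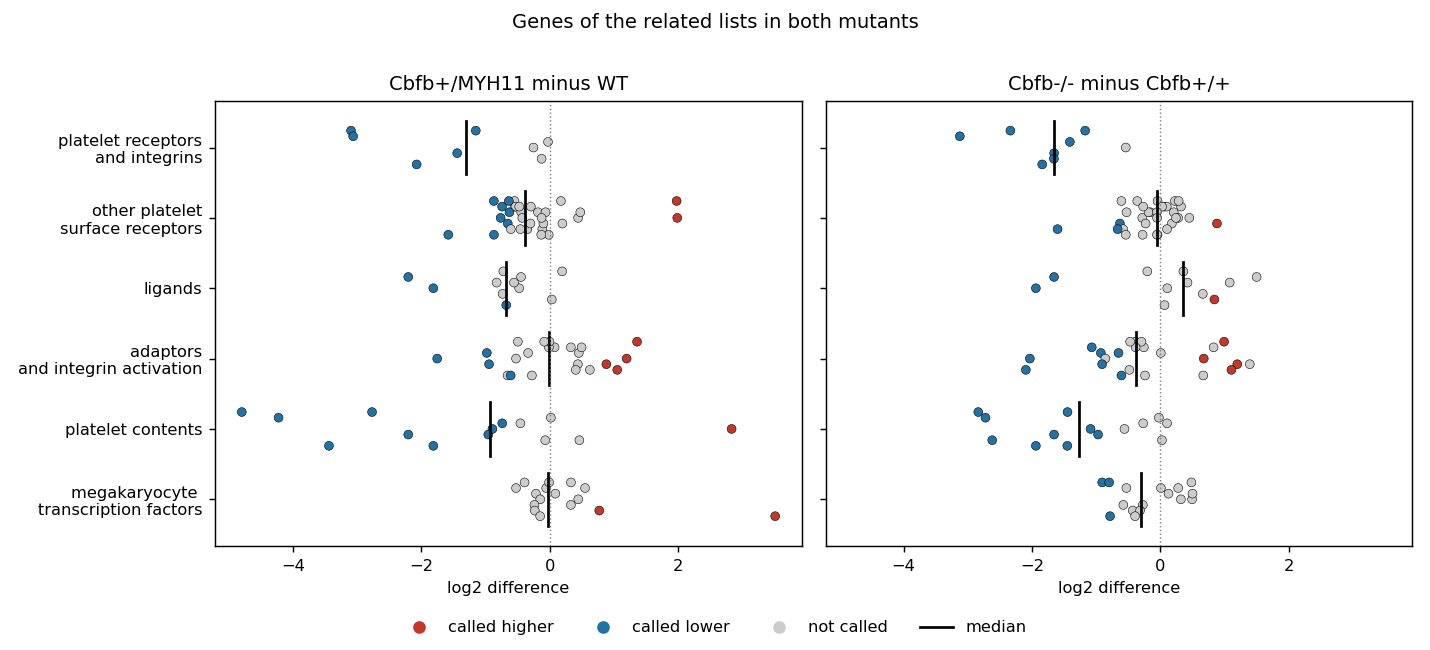
Change on the log2 scale (horizontal axis) of each gene of the receptor set and of the 5 related lists, in Cbfb+/MYH11 against WT and in Cbfb-/- against Cbfb+/+ blood, with the median of each as a bar. The platelet contents have medians of -0.93 and -1.27, and the other surface receptors of -0.39 and -0.05.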

How the data were processed

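Each array's signals were summarised by the authors with Affymetrix Expression Console and RMA, per the submitters' processing notes, and deposited as 1 table of log2 values; tool versions are not given in the sources used here. Of 45101 probe sets, 64 controls were left out. Symbols came from the platform annotation: 34945 probe sets have 1, 932 several and 9160 none.

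For the tests no value was rescaled and no filter on dim probe sets was used, since a filter would keep a gene through the group where it is high. limma 3.58.1 in R 4.3.3 fitted the 4 groups to all 14 arrays (10 residual and 4.65 prior degrees of freedom), with Benjamini-Hochberg adjustment over all 45037 probe sets and a floor of 1.5-fold. The fit was tested on simulated data with independent noise on each array. Those data held no array pairs, so that test cannot show how often false calls arise with them. Where a gene has several probe sets, the brightest on average is its main one. The receptors, lists, tests and alternatives were chosen with earlier results of these data known. For the lists, counts cover all genes and values are given for up to 4 genes each with the smallest adjusted p, with Pdpn and Syk added as direct partners. The precision is limited by the number of arrays. Arrays of like number in the first cross deviated together (correlations of deviations 0.410 to 0.522), and those in the second did not (0.00939 to 0.0344); in the first cross the neighbours within a pair did so as well (0.424 to 0.512). The search for like patterns used gene-centred values of genes at a log2 value of at least 6 on at least 3 arrays. Promoter windows are RefSeq sequences of GRCm38.p6.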

Additional observations from a re-analysis of the deposited data

Results flagged for a closer look

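In the receptor set, the effect in Cbfb+/MYH11 blood was higher than the effect in Cbfb-/- blood, each against its own littermates, for Itga2b by 1.533 and for Gp5 by 1.384 on the log2 scale (limma interaction, adjusted p = 0.0122 and 0.045). Among the genes of the related lists named above, the same test was passed with a higher fusion effect by Gata2 (4.298), Srgn (3.924), Fermt3 (3.15), Tubb1 (3.083), Slc2a3 (1.693), F2r (1.536), Gata1 (1.202), Zfpm1 (1.08) and Gfi1b (0.8958). It was passed with a lower fusion effect by Pf4 (-1.991), Itga6 (-0.8432) and Lamc1 (-0.7434). The adjusted p-values of these genes ran from 1.45e-06 for Gata2 to 0.0417 for Gfi1b. Of these genes, Fermt3 and Zfpm1 were also called higher in Cbfb+/+ than in WT blood, by 1.01 and 0.61. Their differences of effects therefore include a gap between the littermate groups. The Zfpm1 call between wild types was lost without WT array 4 or Cbfb+/+ array 3. The Gfi1b difference was lost, like that of Gp5, with any array but WT 1 or WT 2 left out (adjusted p up to 0.0965), and that of Itga6 without Cbfb+/+ array 2 (0.05).

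Among the 4 Cbfb+/MYH11 arrays, array 1 stood apart for Thbs1, at a log2 value of 4.48: its gap to the nearest array was 0.851 of the range of the group, above Dixon's 95% critical value for 4. Chance marks about 1 in 20 groups, and this was 1 of 64 groups of 4 arrays examined.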

How the results depend on the processing

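Leaving out 1 array in turn gave 5 members called lower in Cbfb+/MYH11 blood each time, 6 to 8 called lower in Cbfb-/- blood, and 1 to 2 with a higher fusion effect in the test of the difference; in Cbfb+/+ over WT 0 to 2 were called higher. With quantile normalization no member passed the test of the difference (0 against 2). Fitted on the arrays of each cross alone, 5 members were again called lower with the fusion and 7 in Cbfb-/- blood. The limma adjusted p then ran from 0.00206 (Clec1b) to 0.0376 (Gp9) with the fusion, and from 5.39e-07 (Gp1bb) to 0.000201 (Treml1) in Cbfb-/- blood. That fit also called the second Itgb3 probe set in Cbfb-/- blood (limma adjusted p = 0.0421). Within arrays 1 and 2, 3 members passed the test of the difference with a lower fusion effect (Gp1bb, Clec1b and Itgb3). Within arrays 3 and 4, 5 passed it with a higher one (Itga2b, Gp5, Gp9, Gp1bb and Itgb3), and 1 member, Gp5, was called higher with the fusion. Both fits also called more probe sets of the whole array in the test of the difference than the fit to the 4 groups, as counted below. Fitted to 6 putative pools, with each array pair of the first cross and each group of the second as 1 unit, which leaves 2 residual degrees of freedom, 0 members were called lower in Cbfb+/MYH11 blood (limma adjusted p 0.13 for Clec1b to 0.322 for Gp9), 0 in Cbfb-/- blood and 0 in the difference. That fit called 58 probe sets in the fusion comparison and 0 in the others, where 1728 and 1924 had an unadjusted p under 0.05 in the Cbfb-/- comparison and the difference. The replicate block called the second Itgb3 probe set in Cbfb-/- blood (-0.62, limma adjusted p = 0.025) and changed no other call of a member; of the named genes of the lists it ended the Srgn call in Cbfb-/- blood (-1.09). The cause of these shifts was not tested.

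Directions turned in these cases. With the fusion, Gp5 was at 0.084 with arrays centred on their median and at 0.73 within arrays 3 and 4, where Itga2b was at 0.27; leaving out 1 array gave -0.26 to 0.24 for Gp5 and -0.30 to 0.11 for Itga2b. The difference of the effects within arrays 1 and 2 was -0.43 for Gp9, -1.16 for Gp1bb, -0.43 for Treml1 and -0.077 for the second Gp1bb probe set, and within arrays 3 and 4 it was 0.27 for Clec1b and 0.61 for Itgb3. Leaving out 1 array gave differences of -0.28 to 0.45 for Gp1bb, -0.049 to 0.096 for its second probe set, -0.083 to 0.55 for Gp9, -0.58 to 0.12 for Itgb3 and -0.19 to 0.21 for Treml1, and Cbfb+/+ over WT values of -0.15 to 0.48 for Gp9, -0.061 to 0.35 for Itga2b and -0.30 to 0.11 for the second Itgb3 probe set.

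Counts over the whole array moved more. Against 1325 probe sets called lower with the fusion, 416 genes were called with 1 probe set per gene at the working level, 569 with the mean of a gene's probe sets, 687 probe sets with the level filter, 713 with centred arrays, 2080 with quantile normalization, 3054 within arrays 1 and 2, and 4782 with no fold floor. Against 1365 called lower in Cbfb-/- blood, the same choices gave 492, 567 and 891 for the first 3 and 2623 with no fold floor. Without WT array 3, 1993 were called lower with the fusion; in Cbfb-/- blood 2998 were called higher, or 1706, 1959, 1922 and 1874 without Cbfb-/- array 1 or 3 or Cbfb+/+ array 2 or 3; and in Cbfb+/+ over WT 1063 were called lower, or 1706 without WT array 1. For calls higher, 1 probe set per gene and the mean of a gene's probe sets gave 2255 and 1945 with the fusion against 4746, and 1443 and 1298 in Cbfb-/- blood against 2998. In the difference, against 1260 lower and 2125 higher, the replicate block gave 2202 lower, array pairs as a block 2585 and 3285, arrays 1 and 2 alone 2690 and 3777, arrays 3 and 4 alone 3291 and 3526, 1 probe set per gene 449 and 1099, gene means 741 and 1082, and the level filter 718 lower. The number of arrays, and pools that cannot be told apart from arrays, limit what these values show beyond the RNA hybridised.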
